A study of Mus musculus with 13 samples.

Results

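Sarcolipin and the proteins that store, release and take up calcium in the sarcoplasmic reticulum were followed through the transcripts of 10 genes in mouse quadriceps, among 24015 genes listed for 13 libraries. The genes were Sln, Pln, Atp2a1, Atp2a2, Casq1, Casq2, Ryr1, Trdn, Pvalb and Jph1. They were chosen by their role and with measured values of these libraries known, namely the TPM of Sln and its partners in aged and young muscle of batch 1, so the levels of all 10 and each of their differences that involves the aged libraries of batch 1 are a description and carry no test. All 10 passed the filter on low values, which kept 11876 genes.

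Calcium leaves the sarcoplasmic reticulum of a muscle fibre through the ryanodine receptor when the membrane is excited, and the force of contraction ends when pumps of the SERCA family carry it back. Sarcolipin and phospholamban are small membrane proteins that bind these pumps and lower calcium uptake, and in mice sarcolipin is abundant in the atria and in slow muscle and scarce in adult fast limb muscle. Calsequestrin buffers calcium inside the store, triadin and junctophilin hold the release site together, and parvalbumin binds calcium in the cytosol of fast fibres.

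RNA of whole quadriceps from C57BL/6 mice was sequenced after 4 weeks of daily intraperitoneal injections. The groups were aged mice given SW033291 at 5 mg/kg in batch 2 (replicates 1, 4 and 6), aged mice given vehicle in batch 2 (replicates 2, 3 and 8), aged mice given vehicle in batch 1 (replicates 2, 3 and 4) and young mice given vehicle in batch 1 (replicates 1, 3, 4 and 5). SW033291 inhibits 15-PGDH, the enzyme that degrades prostaglandin E2, and the vehicle held ethanol, Cremophor EL and dextrose in water. Young mice were 3 months old and aged mice over 24 months. Nothing in the labels says that the libraries came from separate animals, so p-values measure only the spread between these libraries. Young and treated muscle were each present in 1 batch only, so a young library and a batch 2 library differ in both age and batch. The design gives 3 comparisons, which ask what differs with age in batch 1, what differs with SW033291 in aged muscle of batch 2, and how far the same aged vehicle condition differs between batches.

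Levels are in TPM, a transcript's share of all transcripts in a library after correction for its length, which allows levels of different genes to be set side by side but keeps no record of depth. Between 10710 and 11687 genes per library had 1 TPM or more. The gene names of the table had to be put back on their rows before use, and every value rests on that restored order. Markers of fast fibres summed to between 163941 and 212523 TPM per library, and those of slow fibres to between 52.65 and 818 TPM. Of the atrial heart markers Nppb and Myl7 were at 0 in all 13 libraries. Myh6 had 0.29 to 1.46 TPM, Nppa at most 2.61 TPM, Kcnj3 at most 0.97 TPM and Myl4 4.71 to 21.23 TPM. Neutrophil markers summed to 1746 TPM in aged vehicle batch 1 replicate 4, 767 TPM in aged vehicle batch 2 replicate 2 and 229 TPM in SW033291 replicate 4. None of the other 10 libraries exceeded 22.2 TPM.

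The 10 transcripts spanned a wide range of levels. Over all 13 libraries Atp2a1 averaged 23653 ± 4034 TPM (SD, n = 13) and Pvalb 23397 ± 4616 TPM, with overlapping spreads when groups and batches are pooled. In vehicle muscle of batch 2 Atp2a1 had 25611 to 26209 TPM and Pvalb 17361 to 19496 TPM. In treated muscle they had 21252 to 24541 and 19711 to 20553 TPM. In both groups of batch 1 their ranges overlapped. Casq1 followed at 3249 ± 582 TPM. Ryr1 averaged 517 ± 156 TPM and Trdn 382 ± 158 TPM, with overlapping spreads, and Jph1 stood at 173 ± 23.9 TPM. Sln, at 50.3 ± 52.8 TPM, and Atp2a2, at 40.02 ± 25.1 TPM, were close in mean, but the SD of Sln exceeded its mean. Casq2 averaged 13.9 ± 5.95 TPM and Pln 1.51 ± 0.720 TPM. The fast forms of the pump and of calsequestrin stood far above their slow and cardiac forms, and phospholamban was near the lower limit of what was measured.

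**Figure D1:**
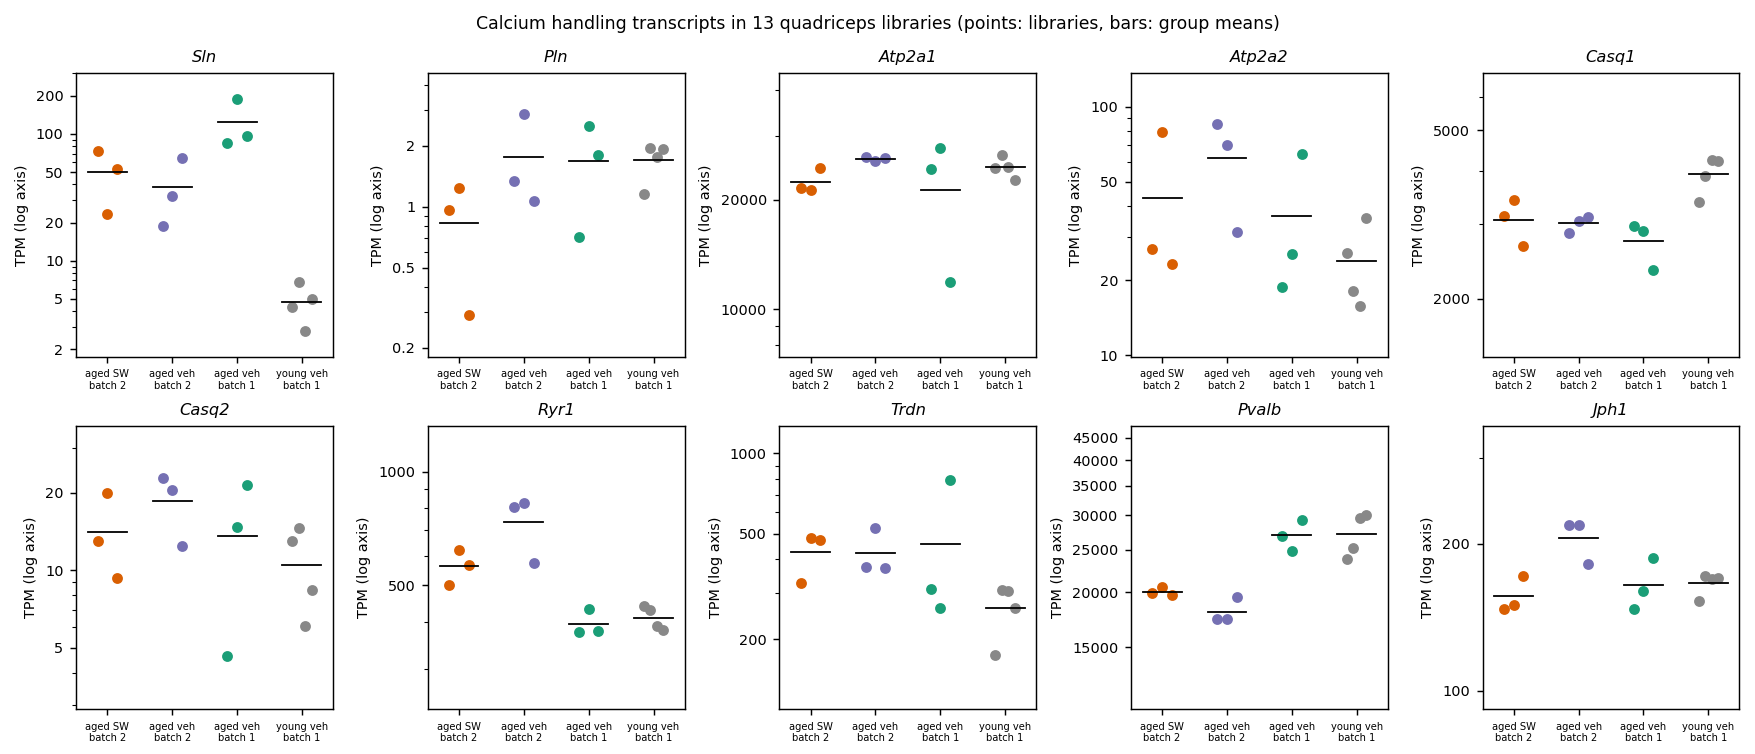
TPM of each of the 10 transcripts (log axis) in the 13 libraries, with 1 point per library and a bar at the mean of each group. Sln lies between 18.7 and 188 TPM in the 9 aged libraries and between 2.81 and 6.75 TPM in the 4 young ones, while Atp2a1 has at least 21252 TPM in every library except aged vehicle batch 1 replicate 4.

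Among the 10 transcripts, sarcolipin had the highest ratio of SD to mean over the libraries. Sln had 73.69, 23.18 and 52.84 TPM in SW033291 muscle of batch 2, against 18.71, 32.71 and 64.06 TPM in aged vehicle muscle of batch 2. It had 84.64, 188.29 and 96.77 TPM in aged vehicle muscle of batch 1, against 4.29, 6.75, 2.81 and 4.95 TPM in young vehicle muscle of batch 1. Every aged library lay above every young one, and within the aged libraries those of batch 1 lay above all 6 of batch 2. Because whole muscle was lysed, fewer fibres of a type and less RNA per fibre cannot be told apart for this or any other transcript here.

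With age in batch 1, Sln averaged 123.2 ± 56.7 TPM in aged muscle (SD, n = 3) and 4.7 ± 1.63 TPM in young muscle (SD, n = 4), a ratio of 26.2 between the means. The difference was 4.40 on the log2(TPM + 1) scale with a standard error of 0.43, or 4.34 beyond the median of all genes. Leaving out each of the 7 libraries in turn gave between 4.05 and 4.62. In the authors' deposited table of aged against young muscle the log2 fold change of Sln was 3.95 with a standard error of 0.637. That table held only 813 genes, among them 2 of the 10, Sln and Casq1. Which aged libraries entered it is not stated, and it rests on the same series, so it is not independent of the difference above.

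Markers of denervated or immature fibres were read beside Sln. All 8 had a positive difference between aged and young muscle of batch 1, and 7 of them did not overlap between the groups, where 8.85% of all tested genes were higher without overlap. Of the 8, 1 passed the test, Gadd45a (limma adjusted p = 0.0079), against 0.455% of all tested genes. The list was chosen with earlier results of these data known, so neither the counts nor this p-value is an independent test. Their summed level was 144.3 to 264 TPM in aged muscle of batch 1 and 61.95 to 70.13 TPM in young muscle. Most of that sum was Gadd45a, a stress gene induced by loss of innervation, with 158 ± 51.7 TPM in aged muscle (SD, n = 3) and 53.5 ± 4.62 TPM in young muscle (SD, n = 4). Chrng, the fetal subunit of the acetylcholine receptor, reached at least 0.64 TPM in aged muscle of batch 1 and was at most 0.14 TPM in young muscle. In batch 2 it had 0.32 to 1.26 TPM in vehicle muscle and 0 to 0.95 TPM in treated muscle. With SW033291 1 of the 8 markers had a positive difference, and their median was -0.34, against -0.13 for all genes. In that comparison 0 passed (lowest limma adjusted p 0.517). Their summed level was 97.7 to 155 TPM in treated and 147 to 199 TPM in vehicle muscle of batch 2. Within the 9 aged libraries the mean level of these markers and that of Sln had a Pearson r of 0.28 and a Spearman rho of 0.12, and r was -0.14 in the 6 libraries of batch 2. Without the 2 libraries farthest from the median of the markers r was -0.32, so the sign turned with the libraries used. The part of these markers in the level of Sln was not tested. The summed level of the atrial markers was 18.72 to 21.29 TPM in aged muscle of batch 1 and 5.31 to 12.43 TPM in young muscle. In batch 2 it was 11.61 to 21.57 TPM in vehicle muscle and 11.85 to 22.12 TPM in treated muscle, which reaches into the range of the young libraries. Most of each sum was Myl4, a light chain that is also made in immature limb muscle, and no other marker of this list exceeded 2.61 TPM.

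With SW033291, Sln did not pass the test. The transcript averaged 49.9 ± 25.4 TPM in treated muscle and 38.5 ± 23.2 TPM in vehicle muscle of batch 2 (SD, n = 3 each), and the groups overlapped. The log2 difference was 0.39 (SE 0.46, limma, Benjamini-Hochberg adjusted p = 0.757), or 0.52 beyond the median of all genes. It turned to -0.03 without aged vehicle batch 2 replicate 2. In the authors' deposited table of SW033291 against vehicle the log2 fold change of Sln was 0.486 with a standard error of 0.485. The unadjusted p there was 0.317, at a mean of 32.05 normalised counts. Treated libraries, at 23.18 to 73.69 TPM, stayed above the young libraries of batch 1, at 2.81 to 6.75 TPM, a contrast that also spans the batches.

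Between the batches Sln averaged 38.5 ± 23.2 TPM in aged vehicle muscle of batch 2 and 123.2 ± 56.7 TPM in aged vehicle muscle of batch 1 (SD, n = 3 each). The log2 difference was -1.73 (SE 0.46), or -1.84 beyond the median of all genes, and for all 10 transcripts the difference between batches is given without a test, because values of the aged batch 1 libraries were known when they were chosen. This comparison shares the aged batch 1 libraries with the age comparison.

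Phospholamban is the counterpart of sarcolipin in heart and slow muscle. Pln had 0.96, 1.24 and 0.29 TPM in SW033291 muscle and 1.34, 2.86 and 1.07 TPM in aged vehicle muscle of batch 2. It had 0.71, 2.52 and 1.81 TPM in aged vehicle muscle and 1.16, 1.96, 1.76 and 1.92 TPM in young vehicle muscle of batch 1. All groups overlapped, and the log2 difference was -0.57 with SW033291 (SE 0.31, limma adjusted p = 0.537) and -0.06 with age (SE 0.29). At these levels the log2(TPM + 1) scale understates differences, and the authors' deposited table of SW033291 gave Pln a mean of only 7.93 normalised counts.

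Atp2a1 encodes SERCA1, the pump of fast fibres. It had 21514, 21252 and 24541 TPM in SW033291 muscle, against 26209, 25611 and 26015 TPM in aged vehicle muscle of batch 2. In batch 1 it had 24263, 27861 and 11877 TPM in aged vehicle muscle, against 24531, 26621, 24573 and 22619 TPM in young vehicle muscle. The treated libraries all lay below the vehicle libraries of batch 2 without passing the test. The log2 difference was -0.21 (SE 0.22, limma adjusted p = 0.728), or -0.08 beyond the median of all genes, which was itself -0.13 in this comparison. Aged vehicle batch 1 replicate 4, the library with the highest summed TPM of neutrophil and of slow fibre markers, had less than any other library. The age difference was -0.29 with it (SE 0.21) and 0.08 without it.

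Atp2a2 encodes SERCA2, the pump of slow fibres and heart. It had 26.85, 79.04 and 23.31 TPM in SW033291 muscle, against 85.36, 70.25 and 31.24 TPM in aged vehicle muscle of batch 2. It had 18.85, 25.5 and 64.35 TPM in aged vehicle muscle of batch 1, against 25.88, 18.12, 15.8 and 35.68 TPM in young vehicle muscle. Levels stood high in 4 libraries, 1 treated, 2 of aged vehicle batch 2 and 1 of aged vehicle batch 1, so the spread within each aged group was as wide as the gap between groups. The log2 difference with SW033291 was -0.62 (SE 0.52, limma adjusted p = 0.660) and that between batches 0.84 (SE 0.52). With SW033291 it was -1.16 without SW033291 replicate 4, -1.05 without aged vehicle replicate 8 and -0.30 without SW033291 replicate 6. Between batches it was 1.35 without batch 1 replicate 4, 1.27 without batch 2 replicate 8 and 0.49 without batch 1 replicate 2. The 8 slow fibre markers had a median difference of -1.24 with SW033291, where 0 were positive, and of 1.28 between batches, where 8 were positive, and 0 of them passed in either comparison (lowest limma adjusted p 0.586 and 0.284).

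The level of Atp2a2 followed that of slow fibre markers across libraries, as did that of Casq2. The marker level was the mean log2(TPM + 1) of 8 slow fibre genes, among them Myh7, the slow myosin heavy chain. It was highest in SW033291 replicate 4, aged vehicle batch 1 replicate 4 and aged vehicle batch 2 replicate 2. These were also the 3 libraries rich in neutrophil transcripts. Over 13 libraries Atp2a2 had a Pearson r of 0.90 and a Spearman rho of 0.88 with the marker level. Its r was 0.99 in the 6 libraries of batch 2 and 0.87 in the 7 libraries of batch 1. Only 2 of 11868 genes, Atp2a2 among them, had an r at least as far from 0. Casq2 had an r of 0.79 and a rho of 0.75, with r of 0.98 in batch 2 and 0.69 in batch 1, and 77 genes had an r at least as far from 0. Without the 2 libraries farthest from the median of the markers, r was 0.86 for Atp2a2 and 0.72 for Casq2. These relations are a description of libraries that share the same sample of tissue and the same TPM total, and they were computed for all 10 transcripts. For the 7 other transcripts over 13 libraries r lay between -0.42 and 0.50. For Sln, taken over the 9 aged libraries because young muscle forms a cluster of its own, r was -0.61 and rho -0.45. In batch 2 alone the r of Sln was -0.87, while 2930 of 11868 genes had an r at least as far from 0 as Sln over the 9 libraries.

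**Figure D2:**
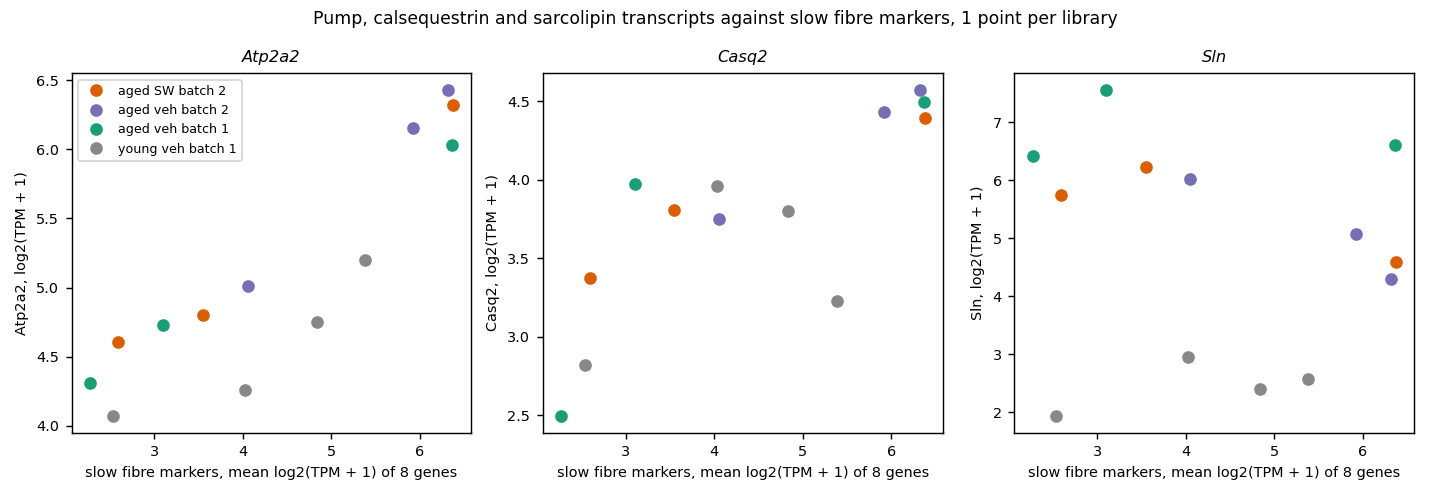
Level of Atp2a2, Casq2 and Sln, as log2(TPM + 1), against the mean log2(TPM + 1) of 8 slow fibre markers, with 1 point per library coloured by group. Atp2a2 and Casq2 run upward with the markers over the 13 libraries (Pearson r 0.90 and 0.79), while the 4 young libraries lie below all aged ones for Sln whatever their marker level.

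Casq1 and Casq2 encode the calsequestrins of fast fibres and of slow fibres and heart. Their promoters are shown because this pair differed in how it followed the slow fibre markers, from RefSeq on GRCm38.p6, as the 250 bases before the transcript start, read 5′ to 3′ on the gene's strand. Casq1 lies at chr1:172219896-172220145 on the minus strand and Casq2 at chr3:102086165-102086414 on the plus strand. Capitals mark E-boxes, the letters CANNTG that basic helix-loop-helix factors of the MyoD family can bind, searched on both strands.
Casq1 promoter: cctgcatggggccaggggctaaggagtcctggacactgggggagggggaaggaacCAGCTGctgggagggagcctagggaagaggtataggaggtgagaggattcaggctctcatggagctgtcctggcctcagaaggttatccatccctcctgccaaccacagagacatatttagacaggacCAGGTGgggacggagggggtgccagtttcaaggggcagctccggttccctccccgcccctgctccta
Casq2 promoter: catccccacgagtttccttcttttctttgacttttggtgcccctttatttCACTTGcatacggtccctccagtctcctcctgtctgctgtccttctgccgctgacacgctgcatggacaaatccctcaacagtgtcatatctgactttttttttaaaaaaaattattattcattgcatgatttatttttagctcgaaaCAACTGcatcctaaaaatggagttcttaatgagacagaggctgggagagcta
Each held 2 E-boxes, and 66.2% of 32851 promoters of the same length held at least 1. The form CAGCTG, present in 13% of them, was found once in Casq1, at position -195 from the start, and not in the Casq2 window. A match is a description of letters and not a site of binding. Of the 10 genes 6 had a promoter in the table. Among these Atp2a1 also held CAGCTG, at position -55, and Pln, Ryr1 and Pvalb did not. The part of these letters in the levels was not tested.

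Casq1 was the other transcript whose aged and young libraries of batch 1 did not overlap. It had 3138, 3421 and 2663 TPM in SW033291 muscle, against 2865, 3058 and 3114 TPM in aged vehicle muscle of batch 2. It had 2972, 2892 and 2336 TPM in aged vehicle muscle of batch 1, against 3378, 3905, 4262 and 4233 TPM in young vehicle muscle. All but 1 of the 9 aged libraries lay below the lowest young library, and the exception was SW033291 replicate 4. The age difference was -0.53 (SE 0.12), and it was -0.42 without aged vehicle batch 1 replicate 4. The authors' deposited table of aged against young muscle gave Casq1 a log2 fold change of -0.594 with a standard error of 0.142. The difference with SW033291 was 0.02 (SE 0.12, limma adjusted p = 0.955) and that between batches 0.15 (SE 0.12).

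Casq2 had 13.02, 20.06 and 9.35 TPM in SW033291 muscle, against 22.83, 20.56 and 12.45 TPM in aged vehicle muscle of batch 2. It had 4.63, 14.67 and 21.55 TPM in aged vehicle muscle of batch 1, against 12.95, 14.56, 6.05 and 8.36 TPM in young vehicle muscle. The groups overlapped in every comparison, and the log2 difference with SW033291 was -0.39 (SE 0.45, limma adjusted p = 0.750). It was -0.66 without SW033291 replicate 4 and -0.15 without SW033291 replicate 6.

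Ratios within a library do not depend on the TPM total. Sln stood at 3.42, 1.09 and 2.15 per 1000 TPM of pump transcript (Atp2a1 plus Atp2a2) in SW033291 muscle and at 0.712, 1.27 and 2.46 in aged vehicle muscle of batch 2. The same ratio was 3.49, 6.75 and 8.10 in aged vehicle muscle and 0.175, 0.253, 0.114 and 0.218 in young vehicle muscle of batch 1. Sarcolipin transcript was thus under 1% of pump transcript in each of the 13 libraries. On the log2 scale the ratio differed by 0.61 with SW033291 (exact two-sided permutation test, p = 0.5, n = 3 each, where 0.1 is the smallest p the design allows), by 4.98 with age and by -2.14 between batches.

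The ratio of slow to fast pump was 1.25, 3.72 and 0.950 per 1000 in SW033291 muscle and 3.26, 2.74 and 1.201 in aged vehicle muscle of batch 2. It was 0.777, 0.915 and 5.42 in aged vehicle muscle and 1.05, 0.681, 0.643 and 1.58 in young vehicle muscle of batch 1. The log2 ratio differed by -0.43 with SW033291 (exact permutation p = 0.8, n = 3 each), where leaving out SW033291 replicate 4 gave -1.02 and leaving out replicate 6 gave -0.03. It differed by 0.76 with age, a value that turned to -0.13 without aged vehicle batch 1 replicate 4. The log2 ratio of Casq2 to Casq1 differed by -0.44 with SW033291 (exact permutation p = 0.3, n = 3 each) and by 0.73 with age, a value that was 0.16 without aged vehicle batch 1 replicate 4 and 1.44 without replicate 2 of that group.

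**Figure D3:**
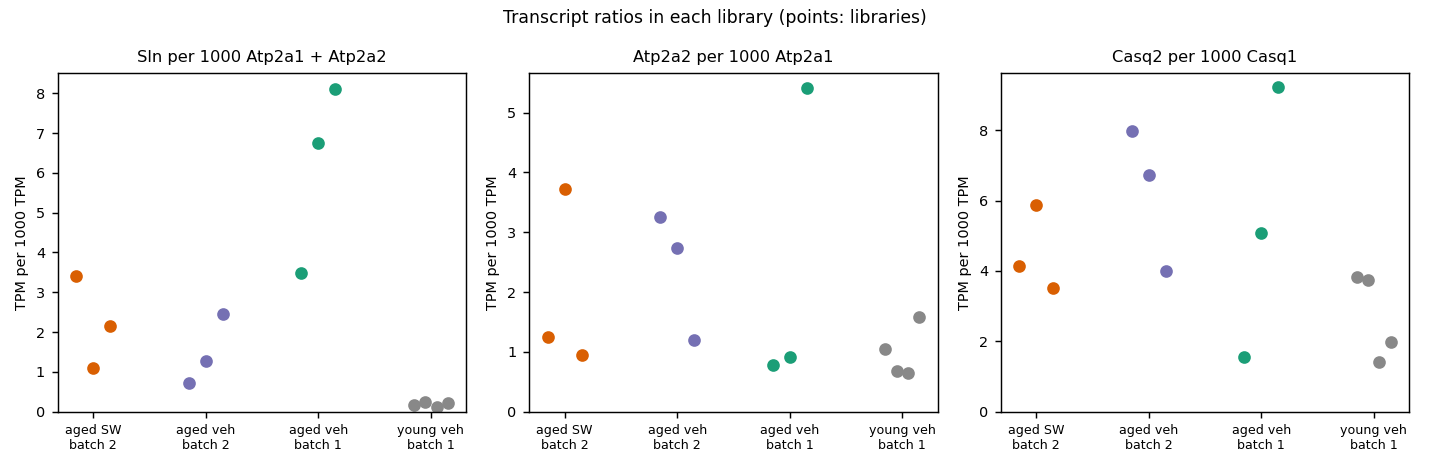
Ratios of transcript levels in each library, in TPM per 1000 TPM, by group, with 1 point per library. The Sln ratio is at most 0.253 in the 4 young libraries and at least 0.712 in the 9 aged ones, while both slow to fast ratios have their highest value in aged vehicle batch 1 replicate 4.

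Ryr1 encodes the ryanodine receptor of skeletal muscle, the channel that releases calcium from the store. It had 500.1, 622 and 566 TPM in SW033291 muscle, against 804, 829.06 and 573 TPM in aged vehicle muscle of batch 2. It had 377, 432 and 379 TPM in aged vehicle muscle of batch 1, against 441, 429, 391 and 381 TPM in young vehicle muscle. All 6 libraries of batch 2 lay above all 7 libraries of batch 1, and within batch 1 aged and young muscle overlapped. Between the batches Ryr1 was higher in batch 2 by 0.88 (SE 0.14), or 0.77 beyond the median of all genes, which was 0.11. With SW033291 the difference was -0.37 (SE 0.14, limma adjusted p = 0.418), with age -0.05 (SE 0.13). Of 9 fast fibre markers 1 passed between the batches, against 2.25% of all tested genes. It was Myh4, a myosin of type IIB fibres, with a difference of 1.21 (limma adjusted p = 0.0061). Of the 9 markers 5 had a positive difference, and their median was 0.10, against 0.11 for all genes. Without overlap 2 were higher and 1 lower, against 11.9% and 4.64% of all tested genes. The lower one was Mylpf (difference -0.35). The part of these markers in the level of Ryr1 was not tested.

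Pvalb encodes parvalbumin, the cytosolic calcium buffer of fast fibres. It had 19944, 20553 and 19711 TPM in SW033291 muscle, against 17404, 17361 and 19496 TPM in aged vehicle muscle of batch 2. It had 26814, 24879.75 and 29294 TPM in aged vehicle muscle of batch 1, against 23837, 25256, 29611 and 30004 TPM in young vehicle muscle. All libraries of batch 2 lay below all those of batch 1. Between the batches Pvalb was lower in batch 2, by a log2 difference of -0.58 (SE 0.11), or -0.68 beyond the median of all genes. With SW033291 the treated libraries all lay above the vehicle libraries, with a difference of 0.15 (SE 0.11, limma adjusted p = 0.615), and with age the difference was -0.01 (SE 0.10). The authors' deposited table of SW033291 gave Pvalb a log2 fold change of 0.312 with an unadjusted p of 0.0069.

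Of all 45 pairs among the 10 transcripts, Ryr1 and Pvalb were the 1 pair, chosen after the values were seen, whose r was beyond 0.85 on the same side of 0 in both batches. Their r on the log2 scale was -0.88 in the 6 libraries of batch 2 and -0.87 in the 7 libraries of batch 1, as a description of libraries that share a TPM total.

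Trdn encodes triadin, which ties calsequestrin to the release channel. It had 326, 483 and 473 TPM in SW033291 muscle, against 376, 523 and 370.4 TPM in aged vehicle muscle of batch 2. It had 309, 263 and 795 TPM in aged vehicle muscle of batch 1, against 176, 306, 305 and 263 TPM in young vehicle muscle. Aged vehicle batch 1 replicate 4 stood far above the rest. The age difference was 0.65 with it (SE 0.32) and 0.15 without it, and the difference with SW033291 was 0.01 (SE 0.34, limma adjusted p = 0.995).

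Jph1 encodes junctophilin 1, which joins the store to the surface membrane at the triad. It had 147, 150.2 and 172 TPM in SW033291 muscle, against 218, 219 and 182 TPM in aged vehicle muscle of batch 2. It had 147, 160.1 and 187 TPM in aged vehicle muscle of batch 1, against 153, 172, 169.9 and 170.2 TPM in young vehicle muscle. The treated libraries all lay below the vehicle libraries of batch 2, with a difference of -0.39 (SE 0.12), or -0.26 beyond the median of all genes, that did not pass (limma adjusted p = 0.397). The authors' deposited table of SW033291 gave Jph1 a log2 fold change of -0.251 with an unadjusted p of 0.04997. For the transcripts other than Pvalb and Jph1 the unadjusted p there lay between 0.106 and 0.777. The share of all genes under 0.05 in it was not counted. Between the batches the difference was 0.32 (SE 0.12).

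Counted over the 10 transcripts, differences were few in each comparison. With age, Sln and Casq1 did not overlap between the groups, against 11.6% of all tested genes. Sln was higher, as were 8.85% of genes without overlap, and Casq1 lower, as were 2.7%. Nothing is read from that count because the genes were chosen with this comparison known. The median log2 difference of the 10 transcripts with age was -0.01, against 0.06 for all genes. With SW033291, 0 of the 10 transcripts passed, as did 0% of all tested genes, while 1221 genes (10.3%) had an unadjusted limma p under 0.05, and other settings called 1 to 4 genes. Atp2a1 and Jph1 were lower and Pvalb higher without overlap in that comparison, against 17.1% of all genes, with 15.1% lower and 1.95% higher. The median of the 10 transcripts was -0.29, against -0.13 for all genes. Between the batches, Ryr1 did not overlap on the higher side, where 11.9% of all genes lay, and Sln and Pvalb on the lower side, where 4.64% lay, 16.5% in all, and nothing is read from that count.

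**Figure D4:**
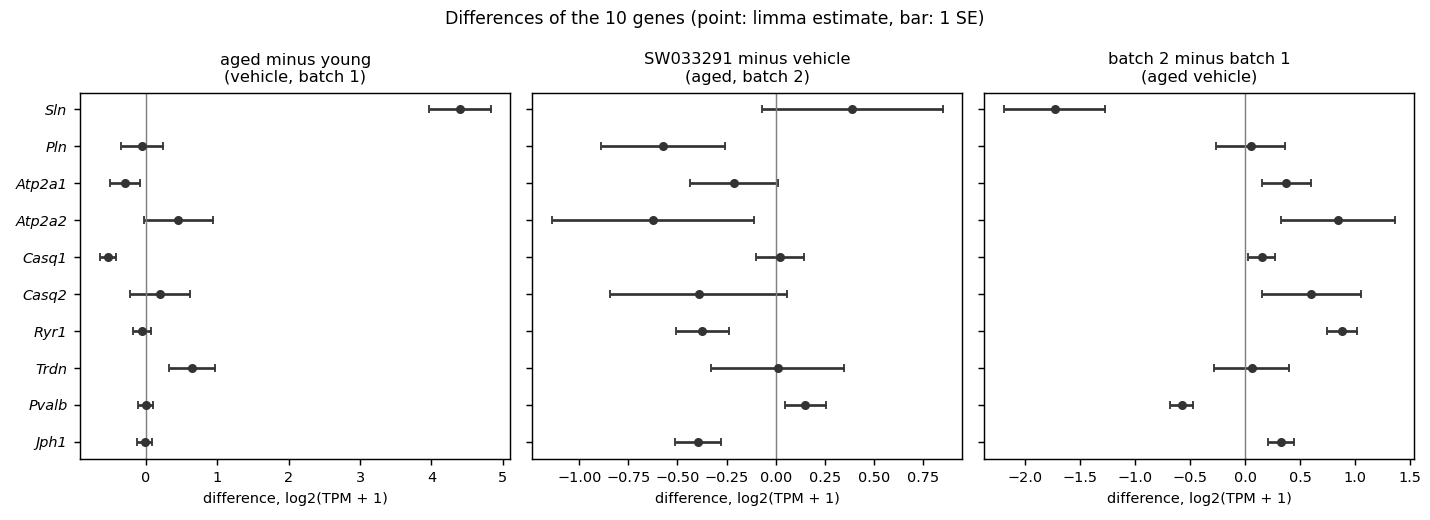
Difference on the log2(TPM + 1) scale for each of the 10 transcripts in the 3 comparisons, as the limma estimate with a bar of 1 standard error to each side. Sln stands at 4.40 with age and at -1.73 between batches, where Ryr1 stands at 0.88 and Pvalb at -0.58.

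Further genes of muscle calcium handling were read from 4 lists that hold none of the 10. These lists too were chosen with earlier results of these data known. Of the other pump genes and micropeptides that bind SERCA, 5 of 7 could be tested, of the triad and calcium release genes 18 of 19, of calcineurin, calmodulin and CaMKII genes 17 of 17, and of calcium transport at the surface membrane and the mitochondria 17 of 21. With age 0 of these 57 genes passed, against 0.455% of all tested genes. With SW033291 0 passed, as did 0% of all tested genes. Between batches 3 were higher and 1 lower, against 2.25% of all tested genes, with 1.72% higher and 0.53% lower. The median difference of the triad and release genes was -0.01 with age, -0.18 with SW033291 and 0.07 between batches, and that of the transport genes 0.05, -0.17 and 0.24. The medians of all genes in these comparisons were 0.06, -0.13 and 0.11.

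Among pump partners, S100a1, a calcium-binding protein that acts on the pump and the release channel, averaged 359.5 ± 14.6 TPM in aged and 286 ± 19.3 TPM in young muscle of batch 1 without overlap (difference 0.33, SE 0.10, limma adjusted p = 0.192). Of all tested genes 8.85% were higher without overlap in that comparison. S100a1 averaged 382 ± 57.9 TPM with SW033291 and 318 ± 7.96 TPM with vehicle in batch 2 (difference 0.25, SE 0.11, adjusted p = 0.456). Atp2a3, the pump of non-muscle cells, averaged 4.60 ± 1.95 TPM in aged and 3.41 ± 1.18 TPM in young muscle. The gene of myoregulin, listed as 2310015B20Rik, averaged 382 ± 13.3 TPM with SW033291 and 351 ± 21.5 TPM with vehicle (adjusted p = 0.825). Between batches 1810037I17Rik, which RefSeq also names Aln, averaged 29.7 ± 1.34 TPM in batch 2 and 48.8 ± 5.27 TPM in batch 1 (adjusted p = 0.135), and Hax1, a partner of phospholamban, 44.75 ± 9.13 and 57.7 ± 2.79 TPM (adjusted p = 0.211). The median difference of this list was 0.24 with age, 0.08 with SW033291 and -0.21 between batches.

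In the triad and release list, the genes farthest from 0 with age came near the threshold. Itpr1, a calcium release channel opened by inositol trisphosphate, had 10.61, 8.95 and 16.03 TPM in aged muscle, against 5.53, 5.24, 7.55 and 5.88 TPM in young muscle of batch 1. Its difference was 0.84 (SE 0.19, limma adjusted p = 0.0675). Sypl2, mitsugumin 29 of the triad, had 272.2, 291 and 167 TPM in aged muscle, against 375.5, 356, 417 and 443 TPM in young muscle, a difference of -0.74 (SE 0.16, limma adjusted p = 0.0603). Cacng1 of the same list came as near, at 659 ± 150 TPM in aged and 412 ± 16.5 TPM in young muscle. Its difference was 0.65 (SE 0.14, limma adjusted p = 0.0605). None of these transcripts overlapped between aged and young muscle of batch 1, nor did 11.6% of all tested genes. Of the 18 tested genes of the list 4 were higher and 2 lower without overlap, against 8.85% and 2.7% of all tested genes. In the 6 libraries of batch 2 Itpr1 had at least 9.5 TPM and Sypl2 at most 302 TPM. With SW033291, Tmem38b, a potassium channel of the store membrane, averaged 55.5 ± 8.84 TPM in treated and 74.6 ± 3.42 TPM in vehicle muscle (difference -0.43, SE 0.17, limma adjusted p = 0.425). Cacna1s, the voltage sensor that opens the ryanodine receptor, averaged 351 ± 24.5 TPM in treated and 432 ± 58.5 TPM in vehicle muscle (adjusted p = 0.463). Between batches Srl, the calcium-binding protein sarcalumenin, had 884, 954 and 777 TPM in batch 2, against 515, 578 and 589.6 TPM in batch 1. It was higher in batch 2 by 0.63 (SE 0.11, limma adjusted p = 0.0133), or 0.52 beyond the median of all genes.

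In the list of calcineurin, calmodulin and CaMKII genes, Camk2b, a CaMKII subunit, averaged 129 ± 20.9 TPM in aged and 91.3 ± 12.4 TPM in young muscle (difference 0.49, SE 0.13, limma adjusted p = 0.146). Ppp3ca, a catalytic subunit of calcineurin, averaged 112 ± 35.6 TPM in aged and 84.2 ± 11.1 TPM in young muscle (adjusted p = 0.561). With SW033291 the 2 farthest were NFAT factors, which calcineurin activates. Nfatc2 averaged 2.57 ± 0.650 TPM in treated and 5.003 ± 1.38 TPM in vehicle muscle (difference -0.74, SE 0.20, limma adjusted p = 0.394), and Nfatc1 16.1 ± 0.931 and 22.7 ± 3.81 TPM (difference -0.46, SE 0.16, adjusted p = 0.418). Both were among the 6 of 17 listed genes that lay below the vehicle libraries without overlap, against 15.1% of all tested genes. Beyond the median of all genes the differences were -0.61 for Nfatc2 and -0.33 for Nfatc1. Of the other NFAT genes in the list, Nfatc3 was also lower (difference -0.43, adjusted p = 0.502). Nfatc4 went the other way, at 1.06 ± 0.648 TPM in treated and 0.480 ± 0.251 TPM in vehicle muscle. Its difference was 0.44, or 0.57 beyond the median of all genes (limma adjusted p = 0.565). The list's median was -0.27 with SW033291, against -0.13 for all genes, and 2 of 17 differences were positive. Between batches Camk2g, another CaMKII subunit, averaged 151 ± 9.08 TPM in batch 2 and 108 ± 8.33 TPM in batch 1, and was higher by 0.47 (SE 0.11, limma adjusted p = 0.0377), or 0.37 beyond the median of all genes.

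Among transporters of the surface membrane and mitochondria, both sodium-calcium exchanger genes were farthest from 0 with age. Slc8a3 averaged 34.7 ± 5.53 TPM in aged and 23.5 ± 7.04 TPM in young muscle (difference 0.58, SE 0.22, limma adjusted p = 0.335), and Slc8a1 3.45 ± 2.14 and 1.99 ± 0.336 TPM (adjusted p = 0.595). With SW033291, Micu3, a regulator of the mitochondrial calcium uniporter, averaged 7.87 ± 1.06 TPM in treated and 12.8 ± 1.85 TPM in vehicle muscle (difference -0.63, SE 0.25, adjusted p = 0.427). Slc8a1 averaged 2.98 ± 0.255 TPM in treated and 4.88 ± 1.19 TPM in vehicle muscle (adjusted p = 0.512). Between batches Stim2, a calcium sensor of the store, averaged 23.2 ± 2.79 TPM in batch 2 and 14.2 ± 1.45 TPM in batch 1 and was higher by 0.66 (SE 0.15, limma adjusted p = 0.0414). Smdt1, a subunit of the mitochondrial uniporter, averaged 233 ± 29.0 TPM in batch 2 and 349 ± 26.9 TPM in batch 1 and was lower, with a difference of -0.59 (SE 0.11, limma adjusted p = 0.0242). The count of 4 calls between batches was 10 without the 3 libraries rich in neutrophil transcripts and 0 without any 1 of aged vehicle batch 1 replicate 2, batch 2 replicate 2 or batch 2 replicate 3.

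**Figure D5:**
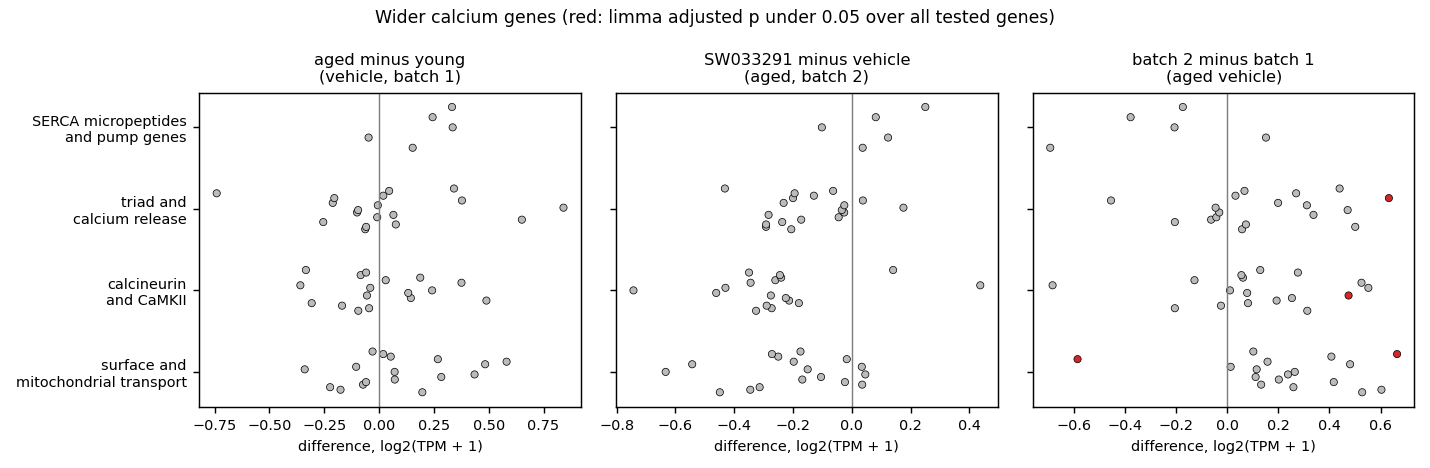
Differences on the log2(TPM + 1) scale of the 57 tested genes of 4 calcium lists in the 3 comparisons, with 1 point per gene and red points for a limma adjusted p under 0.05 over all tested genes. Red points occur between batches and in neither other comparison, where 3 lie above 0 and 1 below.

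The genes whose level was most like that of Sln over the 13 libraries were sought among 7773 others with a mean of at least 5 TPM. They were Ttc9, a tetratricopeptide repeat protein (Pearson r 0.93), Ddt, a relative of the cytokine MIF (0.92), Sh2d4a, an SH2 domain protein (0.90), Plekhb1, a pleckstrin homology domain protein (0.90), and Mbd3, a subunit of the NuRD chromatin complex (0.89). Their likeness rests in part on the gap between young and aged muscle, since within the 9 aged libraries r was between 0.49 and 0.71. Ttc9 had 6.93 to 8.71 TPM in SW033291 muscle and 6.06 to 9.65 TPM in aged vehicle muscle of batch 2. It had 7.93 to 15.52 TPM in aged vehicle muscle and 1.54 to 2.18 TPM in young vehicle muscle of batch 1.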

How the data were processed

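Whole quadriceps RNA was measured in 13 libraries, placed in groups from their labels. STAR, RSEM, DESeq2, DESeq and mm9 are named, without versions or order, per the submitters' processing notes. The authors deposited TPM, length-corrected shares of a fixed total in each library, so depth and counting error are unknown. Per the file headers, 2 further deposited tables of comparisons hold log2 fold changes with standard errors, p-values, a score per gene (the test statistic) and a mean normalised count per gene, a signal over the libraries compared.

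Gene names did not stand on their own rows. First 27 names turned into dates were restored, then the names were sorted in byte order and laid on the rows as these stood. Across 23988 genes, which are not independent replicates, the Spearman correlation of mean level with the authors' deposited table of SW033291 was -0.02 before and 0.96 after.

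The analysis used log2(TPM + 1) and limma 3.58.1 in R 4.3.3, on the 11876 genes with 1 TPM in 3 or more libraries. A single model held a coefficient per group over all 13 libraries, a variance trend and moderated variances. Benjamini-Hochberg adjustment ran over all tested genes, with 0.05 as the threshold. The fit was tested on simulated data. Ratios were compared by exact permutation over libraries. Tests planned for the members between batches are not given, because that comparison shares libraries with their choice. The members and lists were chosen with earlier results of these data known. The text names all 10 members, the 5 genes most like Sln, and from each list the genes that passed or, failing that, the 2 farthest from 0. Cacng1, Nfatc3 and Nfatc4 were added beside them. Alternatives were another pseudocount, other filters and scalings, fits without a trend or on 2 groups, a replicate block, and fits without single libraries. Relations to marker levels and fits without the 3 libraries rich in neutrophil transcripts were added after the data were seen. Protein sequences were not used here.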

Additional observations from a re-analysis of the deposited data

Results flagged for a closer look

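Of 13 values screened in the 4 young libraries, 1 was set off by a single library. Jph1 had 152.87 TPM in young vehicle replicate 1, against 169.85 to 172.28 TPM in the other 3, and the gap was 0.875 of the group's range. Chance sets off about 1 in 20 such groups.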

How the results depend on the processing

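TPM keep no depth, so counting error could not be set beside any value. Of the alternatives to results that answer a comparison, 180 kept the direction and the side of the threshold or stayed within the replicate spread, 38 moved and 1 turned the sign. For the remaining results these numbers were 407, 7 and 9. With age and between batches, a sign that turned from a difference within the replicate spread was not counted as a turn. Counts of calls moved most. Over all genes with age, 54 calls became 27 with no filter, 24 with 2 groups only and 31 with no trend, and 19 to 92 without single libraries. With SW033291, 0 calls became 4 with a pseudocount of 0.1, 1 with no trend, 4 without the 3 libraries rich in neutrophil transcripts, and 0 to 1 without single libraries. Between batches, 267 calls became 144 with median-of-ratios scaling, 102 with quantile normalization, 1 with 2 groups only, 112 with no trend, 1037 without the 3 neutrophil-rich libraries and 18 to 1643 without single libraries. In the wider calcium lists, 0 calls with age became 1 without the 20 most abundant genes, 1 without the neutrophil-rich libraries and 0 to 2 without single libraries. The 4 calls between batches became 2 with median-of-ratios scaling, 2 with quantile normalization, 0 with 2 groups only, 1 with no trend, 10 without the neutrophil-rich libraries and 0 to 18 without single libraries.

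Signs of some members turned in every comparison, and 0 of these values passed a test in the SW033291 comparison. With age the signs of Pln, Atp2a1, Atp2a2, Casq2, Pvalb and Jph1 turned in some alternatives. Those of Sln, Casq1, Ryr1 and Trdn did not. Without single libraries Casq2 with age ranged from -0.22 to 0.78 and Atp2a1 with age from -0.53 to 0.083. Without single libraries Sln with SW033291 ranged from -0.026 to 0.85, Casq1 with SW033291 from -0.059 to 0.12, Trdn with SW033291 from -0.089 to 0.19, and between batches Pln ranged from -0.24 to 0.28, Atp2a1 from -0.0031 to 0.61 and Trdn from -0.25 to 0.55. Casq1 with SW033291 was -0.10 with quantile normalization and -0.094 without the neutrophil-rich libraries, where Trdn was -0.17. Between batches Pln was -0.029 with median-of-ratios scaling and -0.0072 with quantile normalization, Trdn was -0.087 with median-of-ratios scaling, and Atp2a1 was -0.010 without the neutrophil-rich libraries. The cause was not tested.

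Some groups share replicate numbers, but nothing says that a number marks a shared animal or day, and fewer than 3 pairs exist. Same-numbered libraries had deviations that correlated by 0.17 and 0.04 for age and by -0.15 and -0.06 between batches. With a replicate block 4 genes passed with age and 2447 between batches, of which 21 in the wider calcium lists, and between batches Atp2a1 was -0.0051, Atp2a2 1.77 and Jph1 0.51. Leaving out the 20 most abundant genes gave no value for Atp2a1 and Pvalb, and a filter of 5 TPM none for Pln.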
